A study of Macaca mulatta with 8 samples.

Results

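Transcripts of 7 genes known from the cumulus cells around the oocyte were followed in pools of mature oocytes of the rhesus macaque. The genes are SERPINE2, TIMP1, VCAN, VIM, KRT18, ITIH2 and EFEMP1. Every array probe set whose single gene symbol in the platform annotation is one of these was taken, which gave 21 of 52766 probe sets, for 7 of 12993 named genes. The groups were 4 arrays of oocytes matured in the animal (in vivo) and 4 arrays of oocytes matured in culture (in vitro). All oocytes were at metaphase II, the stage at which the egg waits for fertilization, and each array measured 4 pooled oocytes. The arrays of a group are called biological replicates, and the labels give no animal, age, hormone treatment or culture medium, and no account of how cumulus cells were removed. The p-values therefore measure the spread between these pools.

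Cumulus cells are granulosa cells that stay attached to the oocyte and feed it through gap junctions. After the ovulatory signal they secrete a hyaluronan matrix and spread apart, which is called cumulus expansion. Versican (VCAN) is a large proteoglycan that binds hyaluronan, and ITIH2 is a heavy chain of the inter-alpha-trypsin inhibitor, which is linked to hyaluronan in the expanding matrix. SERPINE2 and TIMP1 are secreted inhibitors of serine proteases and of matrix metalloproteases, and EFEMP1 is the matrix glycoprotein fibulin-3. Vimentin (VIM) and keratin 18 (KRT18) form intermediate filaments. None of the 7 is made by cumulus cells alone, so a signal does not name its source.

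The comparison asked whether these transcripts differ between the 2 ways of maturation. The tested probe sets of SERPINE2, TIMP1, VCAN and VIM were above background on every array and had log2 fold changes, in vitro minus in vivo, between -0.38 and 0.51. EFEMP1 had the highest log2 fold change at 1.96 and ITIH2 the lowest at -1.20. Of the 18 probe sets bright enough to be tested, 0 passed a limma adjusted p of 0.05, against 0.148% of all tested probe sets. By unadjusted limma p under 0.05 there were 3 of 18 (16.7%), against 10.3% of all tested. The 4 arrays of a group lay wholly apart from the other 4 at 2 of 18 probe sets (11.1%), against 6.33% of all tested. Both tallies hold ITIH2, which passed the filter on mean signal (above 26.0) only through its in vivo arrays, so neither is support for a difference. Over the other 17 they were 2 and 1. The median log2 fold change of the 18 was -0.12, with 7 above and 11 below 0, and that of all tested probe sets was 0.00. Fewer cells of a type and less RNA per cell cannot be told apart in such pools.

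The deposited signals were already scaled to one trimmed mean per array. As background served the 95th percentile of the 59 controls whose transcripts were not spiked in, which lay between 15.7 and 27.0, and 49.9% to 60.9% of probe sets exceeded it. The control gene EEF1A1 is covered near both ends of its transcript, and its 5′ signal was 7.79% to 37.0% of its 3′ signal in vivo and 20.4% to 27.9% in vitro. In vivo replicates 4 and 2 had the lowest shares, at 7.79% and 13.0%. With 4 arrays a group, precision is limited.

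**Figure D1:**
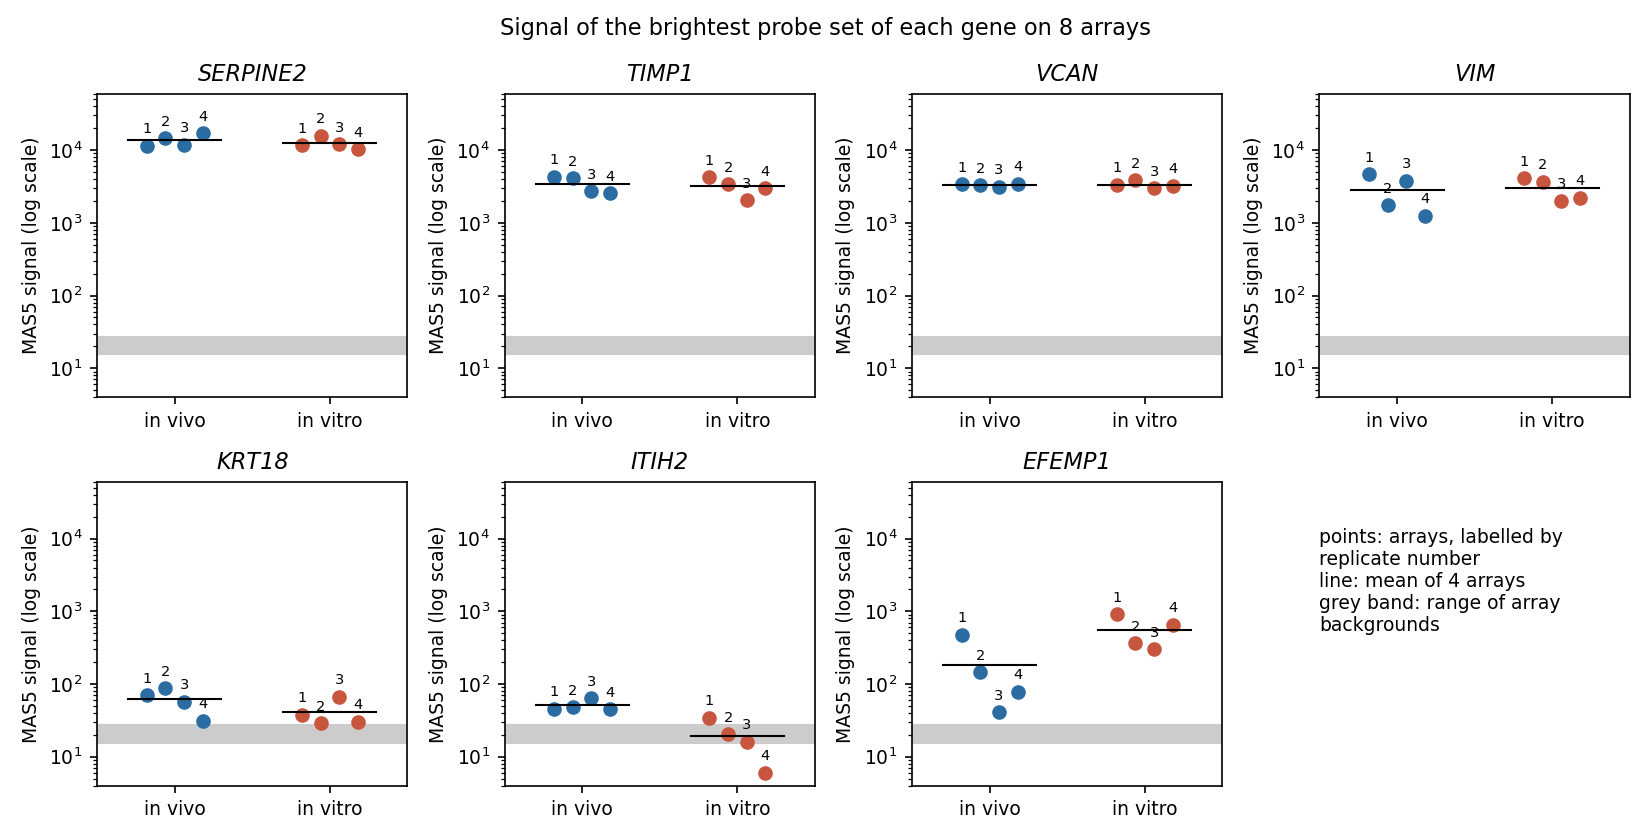
MAS5 signal (log axis) of the brightest probe set of each of the 7 genes, with 1 point per array labelled by its replicate number, the mean of each group of 4 as a line, and the range of array backgrounds (15.7 to 27.0) as a grey band. SERPINE2, TIMP1, VCAN and VIM lie far above the band on all 8 arrays, EFEMP1 spans 40.6 to 916.5, and ITIH2 lies within or below the band on 3 of the in vitro arrays.

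SERPINE2, the protease nexin that blocks thrombin and plasminogen activators, had 4 probe sets, numbered here and below by falling mean signal. The first (MmuAffx.23.8.S1_s_at) was at 11427, 14546.5, 11821 and 17017.5 on in vivo replicates 1 to 4. On the in vitro replicates it was at 11730, 15867, 12014.5 and 10342. The groups overlapped, with the highest signal on in vivo replicate 4 and the lowest on in vitro replicate 4. Its log2 fold change was -0.13 ± 0.17 (SE; 95% interval -0.50 to 0.24; limma adjusted p = 0.833). The second and the third come from the same source sequence and are not independent. The third (MmuSTS.4328.1.S1_at) was at 7502, 7883, 7793 and 9037 in vivo and at 5889, 8036, 6275 and 5320 in vitro. Here 3 of the in vitro arrays lay below every in vivo array, and in vitro replicate 2 lay among them. Its log2 fold change of -0.35 had a limma unadjusted p of 0.0438 and an adjusted p of 0.469. The second (MmuSTS.4328.1.S1_x_at) had -0.22 (95% interval -0.54 to 0.09).

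The fourth SERPINE2 probe set ordered the arrays differently. It was at 2279, 1265, 1697 and 882 in vivo and at 1125.5, 1421, 1594 and 1399 in vitro. In vivo replicate 4, the highest array at the first probe set, was the lowest here. Over the 8 arrays the first and the fourth had a Pearson r of -0.57 (exact permutation p = 0.143; Spearman rho -0.40, exact permutation p = 0.327). The first and the second had 0.84 (exact permutation p = 0.0122, adjusted over 22 pairs of probe sets of one gene 0.0971). Among the 22 pairs, only the pair of SERPINE2 probe sets 2 and 3 passed, with r = 0.96 (adjusted exact permutation p = 0.00491), and they share their source sequence.

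TIMP1, an inhibitor of matrix metalloproteases that also promotes cell survival, had 3 probe sets. The first (MmugDNA.5715.1.S1_at) was at 4286, 4086, 2720 and 2538 in vivo and at 4232, 3371, 2048 and 3004.5 in vitro. The groups overlapped over nearly their whole range. The difference in log2 was -0.12 ± 0.23 (SE; 95% interval -0.62 to 0.39). The third of them was at 78.1, 83.9, 83.2 and 77.6 in vivo and at 62.8, 56.7, 54.0 and 67.2 in vitro. All 4 in vitro arrays lay below all 4 in vivo arrays, as at 3.15% of all tested probe sets. Its log2 fold change of -0.38 ± 0.24 did not pass (limma unadjusted p = 0.138, adjusted p = 0.627). The second (MmugDNA.34193.1.S1_at) had means of 119 ± 33.8 in vivo and of 128 ± 26.8 in vitro (SD over 4 arrays). The TIMP1 probe sets thus did not share a direction, and none of their adjusted p-values was under 0.05.

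VCAN had 5 probe sets, all above background on all 8 arrays. The first (MmugDNA.24380.1.S1_at) was at 3409, 3279, 3129.5 and 3447 in vivo and at 3337, 3872, 2987 and 3211 in vitro. The group means were 3316 ± 144 (in vivo) and 3352 ± 376 (in vitro, SD over 4 arrays), and the highest and lowest arrays were both in vitro. With a log2 fold change of 0.01 and a 95% interval of -0.31 to 0.33, a change of more than 1.26-fold upward lay outside the interval; this value turned to -0.07 with quantile normalization and -0.04 with median centring. The second (MmugDNA.13155.1.S1_at) was at 2320, 1642, 2287 and 939 in vivo and at 2184, 2481, 1720 and 2259 in vitro. The low array was in vivo replicate 4. The log2 fold change here was 0.34 ± 0.25 (SE, limma adjusted p = 0.684).

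The same array stood low at the third VCAN probe set (MmugDNA.24835.1.S1_at), at 1015 against 1883 to 2042 on the other in vivo arrays, while the in vitro arrays ran from 1055 to 2079. In vivo replicate 4 was not low at the first probe set of this gene. The fourth (MmugDNA.22037.1.S1_at) ranged from 181 to 274 in vivo and from 127 to 263 in vitro. The fifth (MmugDNA.22274.1.S1_at) ranged from 37.5 to 63.8 and from 27.3 to 50.7. Log2 fold changes of the third to the fifth were -0.16, -0.18 and -0.30, with limma adjusted p-values of 0.874, 0.841 and 0.794.

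VIM had 4 probe sets. The first (MmugDNA.41518.1.S1_s_at) was at 4642.5, 1757, 3802 and 1240 in vivo and at 4085, 3645.5, 2013 and 2197 in vitro. In vivo replicates 1 and 3 were high and 2 and 4 low. For this probe set the log2 fold change was 0.19 ± 0.36 (SE; 95% interval -0.58 to 0.97), and it turned to -0.14 without in vivo replicate 4. The second of them was at 2415, 1202, 2266 and 1616 in vivo and at 2653.5, 2066, 1712 and 1192.5 in vitro, with a log2 fold change of 0.02. The third (MmuSTS.4634.1.S1_x_at) was at 748, 780, 681 and 1012 in vivo and at 1685, 1493, 1094 and 606 in vitro. At this probe set 3 in vitro arrays lay above every in vivo array and in vitro replicate 4 lay below all of them. Its log2 fold change of 0.51 ± 0.27 did not pass (limma adjusted p = 0.556). The suffix of this probe set marks probes that may also bind other transcripts. The fourth (MmugDNA.19123.1.S1_at) was too dim to be tested and was above background on 1 in vivo and 2 in vitro arrays.

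**Figure D2:**
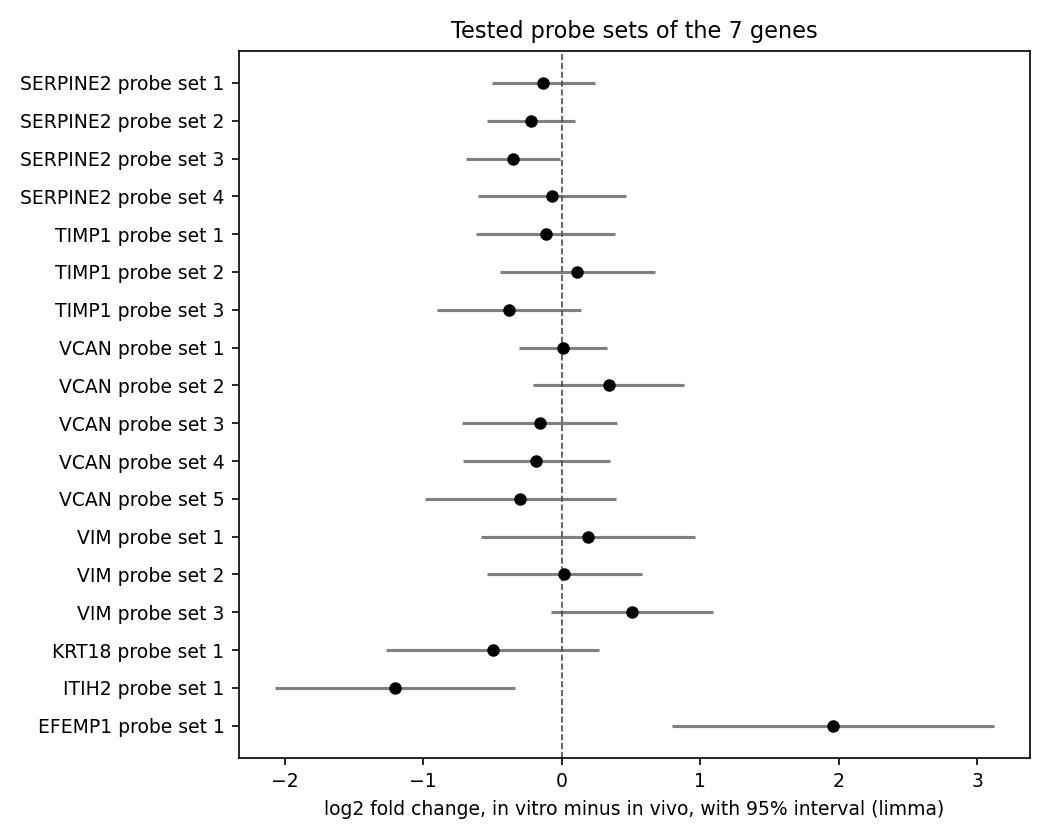
Log2 fold change (in vitro minus in vivo, on the scale log2 of signal plus 8.2) of the 18 tested probe sets, with 95% intervals from limma that are not adjusted for multiple tests. Intervals of EFEMP1 (0.79 to 3.12), ITIH2 (-2.07 to -0.33) and SERPINE2 probe set 3 (-0.69 to -0.01) leave out 0, and none of the 18 passed the adjusted threshold.

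Before adjustment, signals of several of these probe sets went with the EEF1A1 control ratio. This ratio is a measure of how far the amplified RNA reached toward the 5′ end. The 5′ EEF1A1 signal was at 4097, 1606, 4118 and 1223 on in vivo replicates 1 to 4, an order close to that of VIM probe set 1. On the in vitro replicates it was at 2947, 3126, 2913 and 3274, where VIM probe set 1 was at 4085, 3645.5, 2013 and 2197 and had another order. Over the 8 arrays, the log2 ratio and the log2 signal of VIM probe set 1 had r = 0.82 (exact permutation p = 0.00794) and rho = 0.83 (exact permutation p = 0.0154). For SERPINE2 the fourth probe set had r = 0.81 (exact permutation p = 0.0130) and rho = 0.74, while the first had r = -0.83 (exact permutation p = 0.0100) and rho = -0.86. VCAN probe set 2 had r = 0.87 and rho = 0.64 (exact permutation p = 0.0113 and 0.0962), and TIMP1 probe set 2 had r = 0.77 and rho = 0.57 (exact permutation p = 0.0192 and 0.151).

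Of 54 relations with the EEF1A1, beta-actin and GAPDH ratios, 5 had an exact permutation p under 0.05 and 0 passed after adjustment (lowest adjusted p = 0.176). Without in vivo replicates 2 and 4, the arrays farthest from the median ratio, r was 0.41 for VIM probe set 1, 0.64 and -0.60 for SERPINE2 probe sets 4 and 1, 0.21 for VCAN probe set 2 and 0.30 for TIMP1 probe set 2. Each was weaker than over all arrays. Leaving out the most extreme ratios narrows their range, which by itself can weaken r. These values therefore do not show whether a relation rests on those arrays. For EFEMP1 and ITIH2, the members with the most different group means, r was 0.34 and -0.13, and -0.43 and 0.61 without those arrays. With the EEF1A1 ratio as a covariate, an alternative chosen after seeing the data, their log2 fold changes were 1.84 and -1.22 (limma adjusted p = 0.109 and 0.177).

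**Figure D3:**
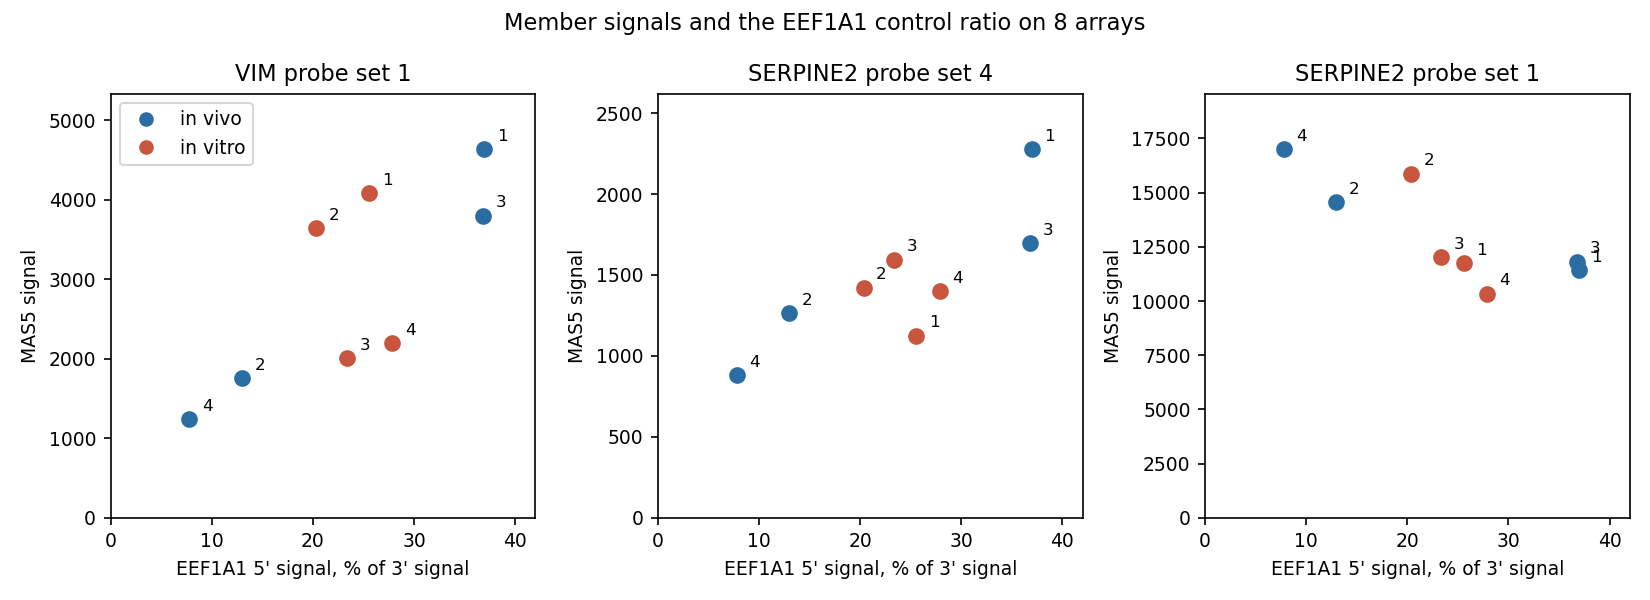
MAS5 signal of VIM probe set 1, SERPINE2 probe set 4 and SERPINE2 probe set 1 against the 5′ EEF1A1 signal in percent of the 3′ signal, with 1 point per array labelled by its replicate number. VIM probe set 1 and SERPINE2 probe set 4 are lowest on in vivo replicate 4 (7.79%), where SERPINE2 probe set 1 is highest at 17017.5.

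KRT18, the keratin of simple epithelia, had 2 probe sets. The first (MmugDNA.12950.1.S1_at) was at 70.2, 87.0, 57.3 and 31.3 in vivo and at 37.5, 28.7, 66.9 and 30.3 in vitro. All 8 signals were above background and the groups overlapped. A log2 fold change of -0.50 ± 0.36 was found (SE; 95% interval -1.27 to 0.27; limma adjusted p = 0.674). The second (MmugDNA.7922.1.S1_at) was above background on 0 arrays. KRT8, the partner with which keratin 18 forms filaments, was above background on 1 of 8 arrays, in vivo replicate 1 at 33.9. KRT18 has many near-identical copies in primate genomes, and the Entrez identifier that the platform gives for its probe sets is the only one of the 7 without an entry in the RefSeq gene table used here. Which copy these probe sets measure is therefore uncertain.

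ITIH2 had a single probe set (MmugDNA.21144.1.S1_at). It was at 45.8, 48.1, 63.6 and 45.1 in vivo and at 34.1, 20.4, 16.0 and 6.0 in vitro. Every in vivo array lay above every in vitro array, and 2 of the in vitro arrays were above background. The in vitro mean lay below the 26.0 that a tested probe set had to exceed, so the probe set was tested only through its in vivo signals, and the values are a description. The means were 50.6 ± 8.73 and 19.1 ± 11.7 (SD, n = 4 each). The log2 fold change of -1.20 ± 0.41 had an unadjusted limma p of 0.0100 and did not pass (adjusted p = 0.327, and 0.177 to 0.538 over the alternatives). It was -1.56 with a pseudocount of 1 and -0.77 with one of 27.7, the range over all alternatives.

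EFEMP1 had a bright and a dim probe set. The bright one (MmugDNA.4481.1.S1_at) was at 475, 146, 40.6 and 78.0 in vivo and at 916.5, 365, 303 and 656 in vitro. In vivo replicate 1 lay among the in vitro arrays, and the other in vivo arrays lay below all of them. The means were 185 ± 198 and 560 ± 283 (SD, n = 4 each), a 3.88-fold difference on the log2 scale with pseudocount (95% interval 1.73 to 8.69). It did not pass (limma unadjusted p = 0.00276, adjusted p = 0.234). Without in vivo replicate 1 the log2 fold change was 2.58 in place of 1.96, and the adjusted limma p was 0.0144. With any other array left out, the adjusted p lay between 0.205 and 0.569. The dim probe set (MmugDNA.1120.1.S1_at) was above background on 0 arrays.

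If the members varied together from pool to pool, their arrays would be high and low in the same order. Over the 21 pairs of the 7 brightest probe sets, Pearson r ran from -0.62 (ITIH2 and EFEMP1) to 0.60 (SERPINE2 and VCAN), and 0 pairs had an exact permutation p under 0.05 before adjustment (lowest adjusted p = 0.685). TIMP1 and VIM had r = 0.50 and rho = 0.64 (exact permutation p = 0.199 and 0.0962). TIMP1 and EFEMP1 had r = 0.42, and 0.77 when each value was taken as its deviation from its group mean. In 8 arrays such values are imprecise, and no common order was detectable.

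Other genes of each member's surroundings were set beside them. Of 18 genes of the expansion matrix 15 were listed and 13 tested, and 0 passed (median log2 fold change -0.13, against -0.02 over 9560 tested genes). TNFAIP6, the enzyme that transfers the ITIH heavy chains to hyaluronan, was at 545 ± 118 in vivo and 497 ± 79.2 in vitro. HAS2, which makes hyaluronan, was at 136 ± 42.8 and 104 ± 36.5. AMBP, whose product bikunin carries those heavy chains, was at 534 ± 281 and 302 ± 35.8 (log2 fold change -0.68, limma adjusted p = 0.434). ITIH1 was above background on 0 arrays, ITIH3 on 4, the hyaluronan receptor gene CD44 on 4, and PTX3, the pentraxin of the expanded matrix, on 3 of 8. The epidermal growth factor-like ligand AREG had a log2 fold change of -1.36 ± 0.76 (SE, limma adjusted p = 0.568). It was above background on 2 in vitro arrays. The protease ADAMTS9 had 0.62 ± 0.39 (SE, limma adjusted p = 0.621), with 582.6 on in vitro replicate 4 and 103.6 to 201.8 on the other in vitro arrays.

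Among plasminogen activators and serpins, 0 of 7 tested genes passed. The inhibitor SERPINI1 was at 149.5, 20.9, 44.5 and 37.1 in vivo and above background on 0 in vitro arrays, so that no fold is given. PLAUR, the urokinase receptor gene, had a log2 fold change of 0.22. PLAU was above background on 5 of 8 arrays, and PLAT was not analysed here. None of 9 tested metalloproteases and their partners passed, with 0.78 for MMP19 and -0.59 for TIMP2, and TIMP3 was above background on 2 of 8 arrays. Of 8 tested intermediate filament and desmosome genes 0 passed, with 0.62 for KRT19 and 0.19 for KRT10. Of 13 tested genes of fibulins and related matrix 0 passed, with -1.25 for the hemicentin gene HMCN1, -1.27 for the perlecan gene HSPG2, -0.86 for FBLN1 and -0.86 for LOX. Those 4 have the smallest p-values of the list, in which 4 genes were above and 9 below 0, and EFEMP2 was not analysed here. The adjusted limma p was 0.159 for HMCN1, 0.269 for HSPG2, 0.323 for FBLN1 and 0.349 for LOX.

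Markers of granulosa and cumulus cells that are no members were measured for the pools as a whole. Of 23 such markers 18 were listed, of which 7 were above background on all 8 arrays and 2 (INHBB and NR5A1) on none. FSHR, LHCGR, CYP11A1, FOXL2 and GJA1 were not analysed here. Aromatase (CYP19A1), which makes estrogen in granulosa cells and is named after its values were seen, was above background on all 8 arrays. Of 14 tested markers, INHBA and STAR rose and 12 did not pass. Among all 9560 tested genes, each by its brightest tested probe set, 16 passed higher in vitro and 8 lower. Counted by probe set, 0.0986% of all tested passed higher and 0.0493% lower. The summed signal of the 18 was 3063 to 4609 in vivo and 5018 to 7748 in vitro. It holds INHBA (means of 165 in vivo and 1483 in vitro) and STAR (191 and 1181), and a sum without them was not taken. HSD3B2, an enzyme of steroid synthesis, had a log2 fold change of 2.28 and the inhibin subunit gene INHA 0.59 (limma adjusted p = 0.204 and 0.370). The part of granulosa RNA in the EFEMP1 difference was not tested.

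**Figure D4:**
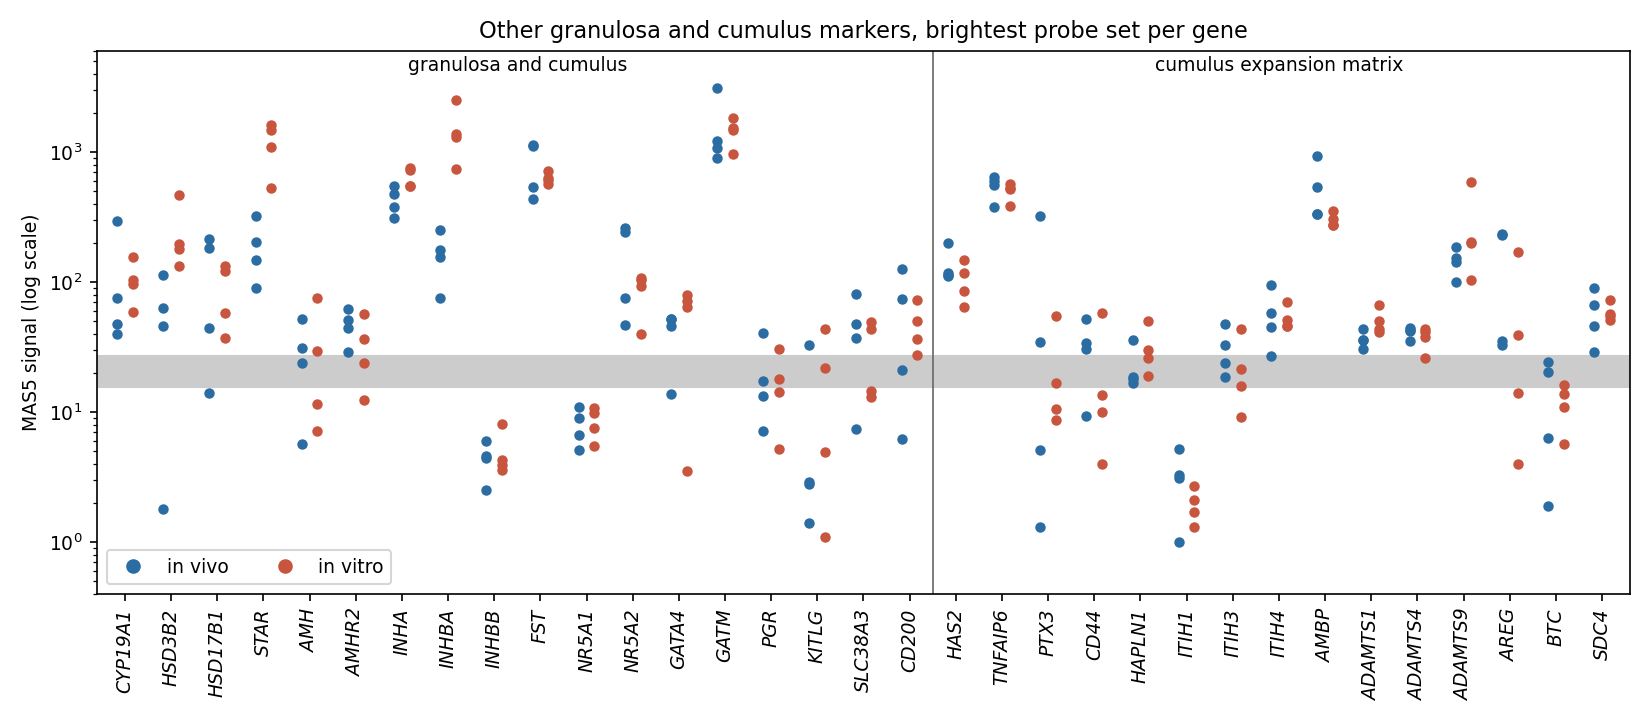
MAS5 signal (log axis) of 18 granulosa and cumulus markers and 15 genes of the expansion matrix, at the brightest probe set of each gene, with 1 point per array, in vivo on the left and in vitro on the right of each position, and the range of array backgrounds as a grey band. INHBA, STAR and HSD3B2 lie higher in vitro without overlap, and 6.33% of all tested probe sets lie apart in either direction. TNFAIP6 and HAS2 overlap between groups and lie above the band on all 8 arrays.

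Markers of other cells were also listed. The summed signal of 8 theca and stroma markers was 168 to 284 in vivo and 297 to 895 in vitro, with 0 of 8 above background on all arrays. Without TAGLN, which had 616.5 on in vitro replicate 1, it was 137 to 255 in vivo and 219 to 278 in vitro. COL6A1 had the smallest p of this list, with signals of 80.4 to 154.5 on the in vitro arrays against 6.8 to 33.9 on the in vivo ones. Its log2 fold change was 1.77, which did not pass (adjusted p of 0.0998 by limma). That of DCN, of the same list, went the other way, at -1.85 (limma adjusted p = 0.266). The sum of 8 blood and immune markers was 223 to 298 in vivo and 99.7 to 188 in vitro, again with 0 of 8 above background on all arrays. For 7 endothelial markers, 5 of them above background on all arrays, the sum was 2052 to 2599 in vivo and 1804 to 2006 in vitro. These 3 sums did not overlap between the groups, the first only with TAGLN included. The blood and immune sum leans on HBB, at 164.9 on in vivo replicate 2, and the endothelial sum on TEK. Sums without HBB or without TEK were not taken, so the separation is not shown to hold beyond single genes. No share of such sums over other gene sets was computed, and their part in the ITIH2 and EFEMP1 differences was not tested. Of the blood and immune markers, CD68 was above background on 0 in vitro arrays, HBB and AIF1 on 1 each and CD14 on 4. The endothelial sum holds TEK, at 779 ± 248 in vivo and 442 ± 56.8 in vitro, and PECAM1, at 194 ± 55.3 and 247 ± 20.6. The sum of 8 epithelial markers was 388 to 648 in vivo and 491 to 645 in vitro. Oocyte markers summed to 47138 to 70173 in vivo and 44398 to 56620 in vitro over 14 genes, 13 of them above background on all 8 arrays. None of the tested genes of these 5 lists passed the adjusted threshold. Markers of the labelled cell type were thus detected on every array, as were some markers of other cells.

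For each member, the 3 genes with the most similar order of arrays were taken from 9559 others by Pearson r of log2 signals over the 8 arrays. As the best of so many, these values are descriptions only. They were CIAO2B, SLC6A17 and GPBAR1 for SERPINE2 (0.95, 0.95 and 0.94) and CTTNBP2NL, PFDN6 and HMOX2 for TIMP1 (0.93, 0.93 and 0.92). VCAN had CNGA3, ZSCAN21 and A4GALT (0.93, 0.91 and 0.90), and VIM had RGS7, PRKAB2 and ARHGDIB (0.99, 0.98 and 0.97). The lists were PPP4R3B, TOR3A and FBLN7 for KRT18 (0.96, 0.94 and 0.93) and TPRN, UBAP1 and S100A10 for ITIH2 (0.99, 0.97 and 0.97). EFEMP1 had TXLNG, CDK2AP1 and CGGBP1 (0.98, 0.97 and 0.97). Of the genes in the lists above, 1 was among these 21, the fibulin gene FBLN7 for KRT18.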

How the data were processed

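Total RNA of pools of 4 oocytes went through 2 rounds of amplification to biotinylated cRNA, per the labels' protocols. What the authors deposited are linear intensity values from MAS5 (named in the submitters' processing notes, no version), scaled to one trimmed mean. Amplification from the 3′ end weakens probe sets far from it. Platform symbols named the probe sets, and 1 probe set that lists KRT18 with other loci was left out. RefSeq's macaque gene table held 6 of the 7 Entrez identifiers. No coordinates are given.

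Values were taken as log2(signal + 8.2), the 25th percentile of 52766 non-control probe sets. Those with a mean signal above the 50th percentile (26378) entered a limma 3.58.1 fit (R 4.3.3, lmFit, eBayes with intensity trend, Benjamini-Hochberg at 0.05). The fit was tested on simulated data. Fold changes on this scale understate those of dim transcripts. Correlations used all permutations of 8 arrays.

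The members and gene lists were chosen with earlier results of these data known. Named are all member probe sets, stated partner genes, up to 4 genes per list of smallest p, and the 3 most similar genes per member. The brightest probe set stood for other genes. INHBB, NR5A1, CYP19A1 and FBLN7 are named after their values were seen. For the lists of other cells, counts and sums are given, with values of some of the genes of smallest p. The theca and stroma sum without TAGLN was added after seeing the data. Alternatives were other pseudocounts (1 and 27.7), filters, scalings and variance models, array weights, a replicate block and each array left out. An EEF1A1 covariate and a filter on mean log2 values were added after seeing the data.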

Additional observations from a re-analysis of the deposited data

Results flagged for a closer look

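The signal of VCAN probe set 3 on in vivo replicate 4 was 1014.6, while the other in vivo arrays lay between 1882.7 and 2041.7. The gap to the nearest array was 0.884 of the range of the group on the log2 scale, past Dixon's critical value. It was the only such case among 42 groups of 4 arrays examined, and chance alone gives about 1 in 20. In vivo replicate 4 also had the lowest EEF1A1 5′ share, at 7.79%, and the part of this in the low signal was not tested.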

How the results depend on the processing

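The count of 0 member probe sets past the adjusted limma threshold became 1 (EFEMP1) without in vivo replicate 1. It was also 1 with a replicate block, where the limma adjusted p of EFEMP1 was 0.0383. It stayed at 0 under the other alternatives, and lay between 0 and 1 with each array left out. The labels do not say whether the replicate numbers pair the arrays. Deviations of same-numbered arrays from their group means had correlations of -0.04 to 0.01, which does not settle it. The count over all probe sets, 39, lay between 19 and 96 with each array left out (in vivo: 72 with replicate 1 omitted and 96 with replicate 4 omitted; in vitro: 19, 23 and 21 with replicates 1, 2 and 3 omitted). It was 7 without the intensity trend, 88 with array weights, 302 with the EEF1A1 ratio as covariate and 44 with the replicate block, and the cause was not tested.

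Of 338 log2 fold changes of members under alternatives, 315 kept direction and side of the threshold, 2 passed and 21 changed sign, all of them within 0.18 of 0. With quantile normalization, VCAN probe set 1 had -0.067 and VIM probe set 2 had -0.057. With median centring they had -0.043 and -0.035. With the EEF1A1 covariate VIM probe sets 1 and 2 had -0.049 and -0.075. With an array left out, sign changes were seen for SERPINE2 probe set 4 (-0.30 to 0.15), TIMP1 probe sets 1 (-0.27 to 0.078) and 2 (-0.042 to 0.25), VCAN probe sets 1 (-0.062 to 0.063), 3 (-0.39 to 0.0035) and 4 (-0.32 to 0.019), and VIM probe sets 1 (-0.14 to 0.49) and 2 (-0.18 to 0.22). The upper-quarter filter gave no value for TIMP1 probe set 3, VCAN probe set 5, KRT18 and ITIH2, which lie below it.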
